A study of Mus musculus with 168 samples.

Results

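A set of 9 genes that accompany the passage of adult neural stem cells into the neuronal lineage were described across single cells of the old mouse subventricular zone (SVZ), the germinal layer along the lateral ventricle. They were taken by name: Dlx1, Dlx2, Dlx6os1, Sox4, Sox11, Hes6, Insm1, Dcx and Cd24a, which are 9 of the 42405 gene symbols in the files. The SVZ cells were split by features that use none of the 9 genes, namely the share of each cell's transcripts that encodes ribosomal proteins and the detection of Mki67, a marker of cycling cells.

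In the adult SVZ, quiescent astrocyte-like stem cells become activated, turn into transit amplifying progenitors and then into neuroblasts that migrate to the olfactory bulb and become interneurons. The homeobox genes Dlx1 and Dlx2 specify the interneuron fate, and the SoxC factors Sox4 and Sox11 turn on neuronal genes. Hes6 relieves the repression that Hes proteins downstream of Notch exert on proneural genes, Insm1 is a zinc finger factor of neuronal progenitors, Dcx binds microtubules in migrating neuroblasts, and Cd24a is a surface protein of neuroblasts and of ependymal cells.

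The data are Smart-seq2 profiles, which read full-length transcripts of 1 cell at a time, from 150 hand-picked cells of male C57BL/6 mice, with no transgene named in the labels. The SVZ cells, labelled as 23 months old (the extraction text gives the pooled mice a slightly lower age), were sorted as GLAST and CD133 positive and CD45 and O4 negative, and their names form a series ogp of 68 cells and a series ogp2 of 65. The reference astrocytes, given as 25 months old, came from a gate for GLAST without CD45 or O4, 13 from striatum dissected without the SVZ and 4 from somatosensory cortex. The extraction text uses 1 abbreviation for both regions, and the tissue labels were followed. SVZ and astrocyte values stand in separate deposited tables, so levels set across them rest on TPM (transcripts per 1000000) alone, and age differs with the tissue. The gate keeps cells with surface markers of stem cells. Tissue of several mice was pooled and the labels tie no cell to an animal. Each group is therefore 1 sample, cells are not replicates, and no test or p-value was computed. SDs are over cells, and intervals for shares are exact 95% Clopper-Pearson intervals, which cover counting error only.

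The SVZ cells fall into 4 classes. Cells with a ribosomal protein share under 3% of TPM are called low-ribosome (100 cells, median share 1.70%), those from 3% to under 6% intermediate (10 cells, 3.84%), and those at 6% or more ribosome-rich, of which 12 had Mki67 under 1 TPM (8.02%). The 11 cells with Mki67 at 1 TPM or more (10.1%) form the remaining class. Of these, 9 were ribosome-rich and the others, with shares of 5.69% and 5.96%, were not, so all ribosome-rich cells number 21. A further look at the limits found that 11 cells lay within 0.5 percentage points of the 3% limit and 3 within that distance of the 6% limit. The median number of genes at 1 TPM or more was 3214.5 in low-ribosome cells, 3944 in intermediate cells, 5216 in ribosome-rich Mki67-negative cells and 6756 in Mki67-positive cells. The classes therefore also differ in the number of genes detected. The depth of the libraries is unknown, because TPM keeps no read counts. In 5 ogp cells the listed genes summed to between 66189 and 309864 TPM as deposited, and all cells were rescaled to 1000000.

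The summed level of 12 markers of quiescent stem cells and astrocytes, such as Slc1a3 and Aqp4, had a median of 77462 TPM in low-ribosome cells, 51353 in intermediate cells, 16455 in ribosome-rich Mki67-negative cells and 3678 in Mki67-positive cells, beside 82904 in striatum and 55477 in cortex astrocytes. All 10 mitotic markers were found in the Mki67-positive class and none in any astrocyte. Of the 10, 8 reached 1 TPM in some ribosome-rich Mki67-negative cell, 2 in an intermediate and 6 in a low-ribosome cell. Their sums there were up to 395, 15.1 and 223 TPM. The Mki67-positive cell ogp2.6 had Mki67 at 4.71 TPM and a sum of mitotic markers of only 6.16 TPM, so the class is named by Mki67 and not by mitosis. Of 8 microglia markers, 5 reached 1 TPM in some SVZ cell and none in a ribosome-rich or Mki67-positive cell. Their sum was up to 4758 TPM in an intermediate and 292 TPM in a low-ribosome cell, and Ptprc, Itgam and Cx3cr1 were under 1 TPM in every cell. Of 10 ependymal markers, 6 reached 1 TPM in low-ribosome cells, with a median sum of 204 TPM and a maximum of 2255 TPM, and 5 in ribosome-rich cells, with a maximum of 309.75 TPM. Tmem212, Ccdc153, Pifo and Ak7 were under 1 TPM in every cell. The part of these cell types in the results was not tested. The sum of 10 oligodendrocyte lineage markers ran from 0 to 6372 TPM in low-ribosome cells and from 0 to 1108 TPM in ribosome-rich cells.

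**Figure D1:**
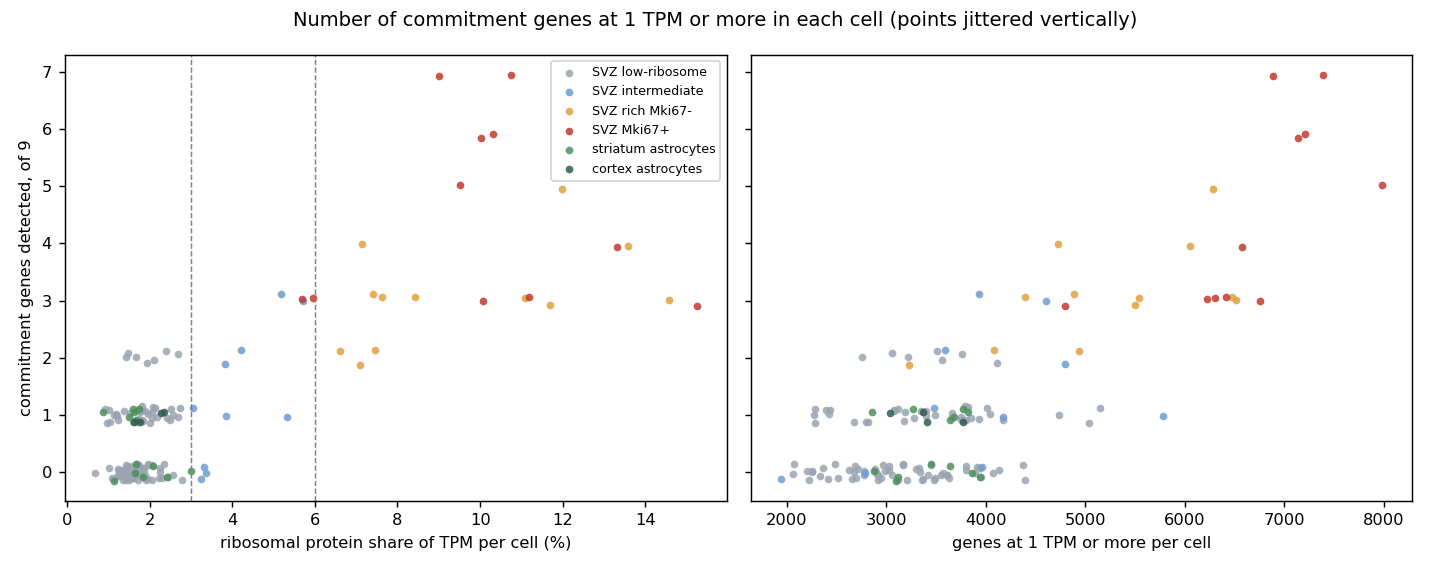
Each point is 1 cell. The vertical axis gives how many of the 9 commitment genes were at 1 TPM or more, against the ribosomal protein share of TPM in percent (left, with the 3% and 6% limits dashed) and against the number of genes at 1 TPM or more (right). Low-ribosome SVZ cells and astrocytes hold 0 to 2 of the genes, and the 4 cells with 6 or 7 are Mki67-positive.

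The number of commitment genes per cell followed the classes. At a detection limit of 1 TPM, low-ribosome cells held a median of 0 of the 9 genes and never more than 2. Of the 100 low-ribosome cells, 58 held none, 35 held 1 and 7 held 2, so that 42 (42%, interval 32.2 to 52.3%) held at least 1. Intermediate cells held a median of 1 and at most 3, ribosome-rich Mki67-negative cells a median of 3 (2 to 5), and Mki67-positive cells a median of 4 (3 to 7). Every cell of both these classes held at least 2 of the genes. Astrocytes held at most 1, which was found in 6 of 13 striatum and 4 of 4 cortex cells, together 10 of 17 (58.8%, 32.9 to 81.6%).

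The number of genes detected moves with this pattern. Over the 68 ogp and 65 ogp2 cells, the number of commitment genes had a Pearson r of 0.81 with the ribosomal protein share. With the number of genes detected it had an r of 0.80, and these 2 measures had an r of 0.79 with each other. By rank (Spearman), the number of commitment genes had values of 0.59 with the share and 0.60 with the genes detected. These were 0.74 and 0.70 within ogp, and 0.28 and 0.41 within ogp2. The cells share pooled mice, and both measures come from the same libraries as the counts, so these are descriptions. Within the 21 ribosome-rich cells the r was 0.15 with the ribosomal protein share and 0.72 with the number of genes detected. Within the 100 low-ribosome cells both were weak, at 0.18 and 0.21. Among cells with 4500 to 6500 genes detected, 3 low-ribosome cells held 1 commitment gene each and 3 intermediate cells a median of 2. There, 8 ribosome-rich Mki67-negative cells held a median of 3 and 4 Mki67-positive cells held 3 each. The window does not make the classes equal, as the median number of genes detected was 5033, 4791, 5520 and 6261.5 in the same order. The part of gene detection in the pattern was not tested beyond these values.

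Sequences upstream of the start sites are shown for the 3 genes that were detected together in most ribosome-rich cells, Hes6, Sox11 and Sox4, and for the neighbouring pair Dlx1 and Dlx2, which was not found in ribosome-rich Mki67-negative cells. Each runs 5′ to 3′ on the gene's strand from 250 bases before to 50 bases after a RefSeq start (GRCm38.p6). The windows are chr1:91413989-91414288 for Hes6 (minus strand), chr12:27342669-27342968 for Sox11 (minus), chr13:28953650-28953949 for Sox4 (minus), chr2:71529195-71529494 for Dlx1 (plus) and chr2:71546705-71547004 for Dlx2 (minus). Capitals mark CAGCTG, an E-box that reads the same on both strands and belongs to the family of sites that basic helix-loop-helix proteins are known to bind.
Hes6: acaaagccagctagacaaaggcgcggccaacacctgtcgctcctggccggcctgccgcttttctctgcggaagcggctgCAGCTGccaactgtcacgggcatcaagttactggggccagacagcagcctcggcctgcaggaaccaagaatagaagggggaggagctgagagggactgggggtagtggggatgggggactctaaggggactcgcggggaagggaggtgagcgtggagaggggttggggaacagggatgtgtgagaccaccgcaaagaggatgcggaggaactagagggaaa
Sox11: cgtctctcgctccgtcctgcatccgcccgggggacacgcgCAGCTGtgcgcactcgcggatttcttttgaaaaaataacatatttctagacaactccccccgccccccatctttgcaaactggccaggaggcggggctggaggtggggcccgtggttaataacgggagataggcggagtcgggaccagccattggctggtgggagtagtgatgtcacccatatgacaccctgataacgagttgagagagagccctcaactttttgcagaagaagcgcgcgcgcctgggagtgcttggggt
Sox4: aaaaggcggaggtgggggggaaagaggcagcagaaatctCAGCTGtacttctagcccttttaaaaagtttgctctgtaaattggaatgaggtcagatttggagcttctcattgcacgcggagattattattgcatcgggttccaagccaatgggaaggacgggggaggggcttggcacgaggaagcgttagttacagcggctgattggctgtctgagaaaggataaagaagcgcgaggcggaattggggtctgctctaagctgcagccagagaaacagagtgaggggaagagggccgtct
Dlx1: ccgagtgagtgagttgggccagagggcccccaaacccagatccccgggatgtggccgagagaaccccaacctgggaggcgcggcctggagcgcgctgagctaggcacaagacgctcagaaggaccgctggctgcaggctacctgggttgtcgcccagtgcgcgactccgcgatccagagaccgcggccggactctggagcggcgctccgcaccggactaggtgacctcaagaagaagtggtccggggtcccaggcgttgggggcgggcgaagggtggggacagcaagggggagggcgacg
Dlx2: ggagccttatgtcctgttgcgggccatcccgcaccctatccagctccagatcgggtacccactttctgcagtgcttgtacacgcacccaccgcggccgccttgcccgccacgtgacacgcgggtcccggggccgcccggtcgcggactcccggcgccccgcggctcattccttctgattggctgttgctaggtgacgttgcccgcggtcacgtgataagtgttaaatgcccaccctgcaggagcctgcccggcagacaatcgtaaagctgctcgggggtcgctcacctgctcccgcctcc

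CAGCTG was found once in each of the windows of Hes6, Sox11 and Sox4 and not in those of Dlx1 and Dlx2. Of the 9 genes, 7 have such a window in the RefSeq table, 10 windows in all. The other window of Hes6 and 1 of the 2 of Dlx6os1 also hold the motif, and neither of the 2 of Dcx does. Among all 32851 windows of this length, 16.3% hold it. A match is a description of the sequence and not a binding site, and its absence says nothing beyond these bases.

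Hes6 was the most abundant of the 9 genes by mean TPM in every class. It lies on chromosome 1 (91411483 to 91414038, minus strand, GENCODE on GRCm38). In low-ribosome cells it ran from 0 to 806 TPM with a median of 0 and was detected in 20 of 100. In intermediate cells it ran from 0 to 678 TPM with a median of 0 (4 of 10 cells). All 12 ribosome-rich Mki67-negative cells held it, from 115.8 to 1844 TPM with a median of 694, and all 11 Mki67-positive cells held it, from 130 to 2427 TPM with a median of 865. Most of the 20 low-ribosome cells with Hes6 (median 216 TPM) lie within the range of both upper classes, and these 2 classes overlap almost fully. The means were 54.4 ± 137 (SD, n = 100 cells), 136 ± 219 (n = 10), 772 ± 464 (n = 12) and 1023 ± 750 TPM (n = 11). On the log2 scale of mean TPM plus 1, Hes6 was 3.80 higher in ribosome-rich Mki67-negative and 4.21 higher in Mki67-positive cells than in low-ribosome cells, where the median of all genes tested was 0.16 and 0.12. Mki67-positive cells exceeded ribosome-rich Mki67-negative ones by 0.40, and in a window of 4500 to 6500 genes detected the ratio was -0.55.

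The 20 low-ribosome cells with Hes6 were close to the other low-ribosome cells in ribosomal protein share and in genes detected. Their median ribosomal protein share was 1.68%, against 1.73% in the 80 without it, and their median number of genes detected was 3398 against 3183. Egfr, the receptor of activated stem cells, was found in 4 of the 20 and 23 of the 80. Median Slc1a3 was 3069 TPM in the 20 and 3965 TPM in the 80, and median Aqp4 178 and 271 TPM. Sox11 was found in 5 of the 20.

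**Figure D2:**
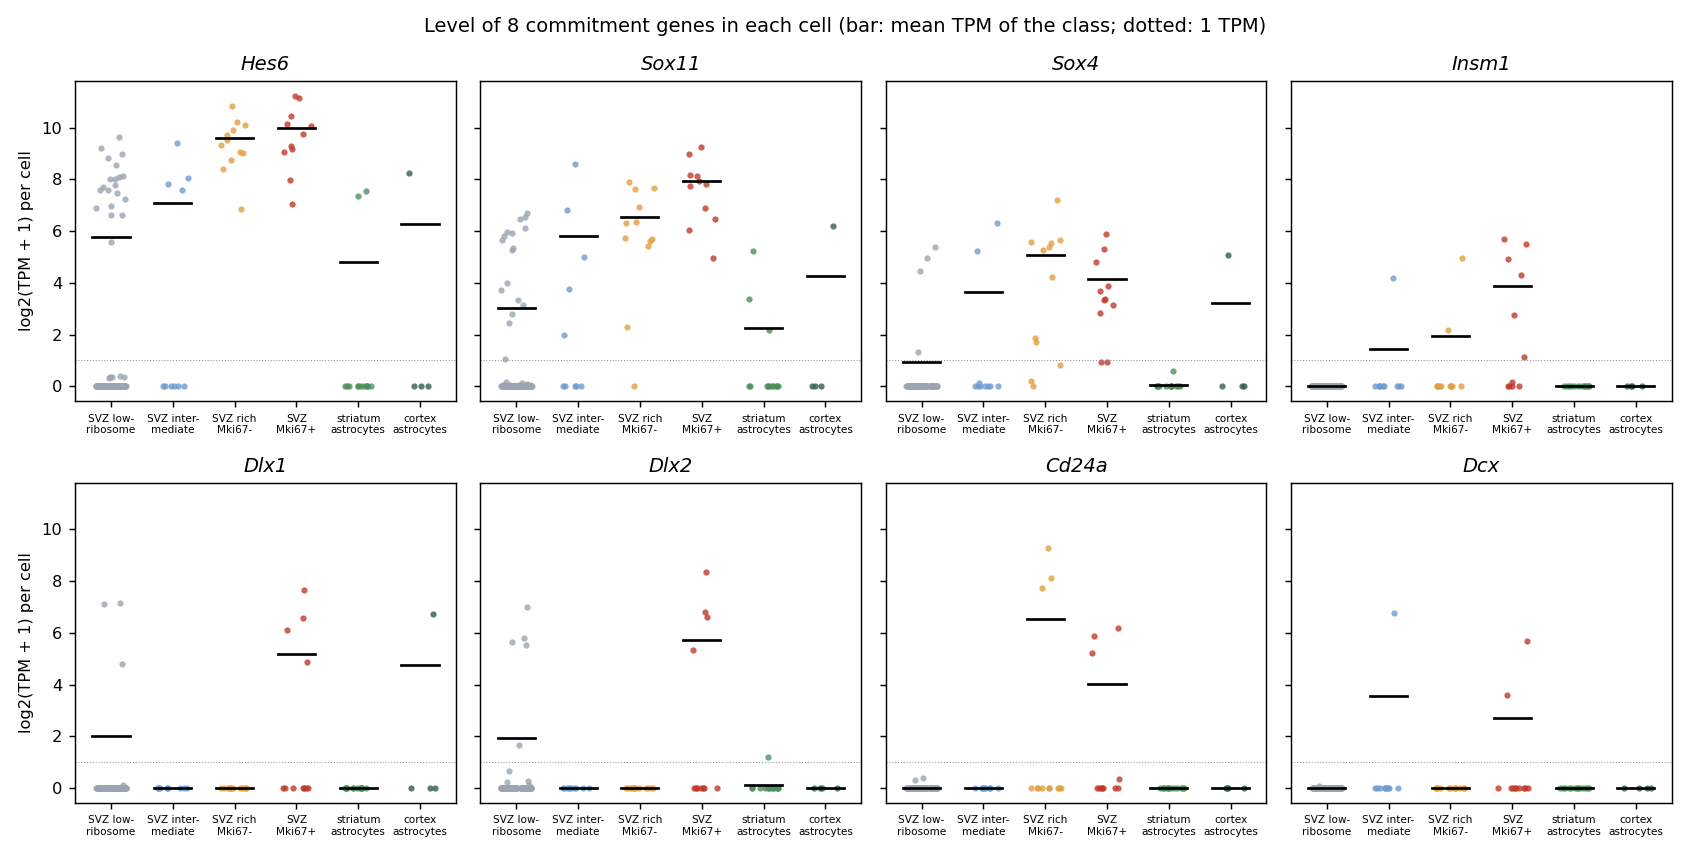
Level of 8 of the genes in each cell as log2(TPM + 1), by class of SVZ cell and for striatum and cortex astrocytes. Points are cells, bars the mean TPM of a class on the same scale, and the dotted line 1 TPM. Hes6 and Sox11 are high in nearly all cells of both upper classes, whereas Dlx1 and Dlx2 are high in 4 Mki67-positive cells and in a few low-ribosome cells.

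Sox11 was next in breadth of detection, and its mean was higher in each class in turn. Its gene is on chromosome 12 (27334264 to 27342574, minus strand). In low-ribosome cells it ran from 0 to 104.6 TPM with a median of 0 (17 of 100 cells), and in intermediate cells from 0 to 391 TPM with a median of 1.49 (5 of 10). In ribosome-rich Mki67-negative cells it ran from 0 to 238 TPM with a median of 66.1 (11 of 12), and in Mki67-positive cells from 30.1 to 606 TPM with a median of 225 (11 of 11). Mki67-positive cells thus lie mostly above the low-ribosome cells, with overlap at the bottom of their range. The means were 7.15 ± 20.9, 54.9 ± 123.1, 93.1 ± 79.5 and 243 ± 179 TPM in the same order. The log2 ratio over low-ribosome cells was 3.53 for ribosome-rich Mki67-negative and 4.90 for Mki67-positive cells, and between these 2 classes it was 1.37, which is under 4-fold. In the window of 4500 to 6500 genes detected that last ratio was -0.42. The intermediate class gave 2.78 over low-ribosome cells, but 1.18 without its highest cell and -1.49 within ogp.

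Sox4, the other SoxC gene, was less abundant and was found mainly in cells above the 3% limit. It lies on chromosome 13 (28948919 to 28953713, minus strand) and overlaps a gene of the opposite strand, Gm26735, and without strand information reads of the 2 cannot be told apart. It was detected in 4 of 100 low-ribosome cells (highest 41.4 TPM) and 2 of 10 intermediate cells (highest 78.8 TPM). In ribosome-rich Mki67-negative cells it ran from 0 to 148 TPM with a median of 27.7 (9 of 12 cells), and in Mki67-positive cells from 0.910 to 58.98 TPM with a median of 9.40 (9 of 11). The 2 upper classes overlap over most of their range. The means were 0.947 ± 5.51, 11.6 ± 26.3, 32.8 ± 41.96 and 16.8 ± 17.9 TPM. Its log2 ratio over low-ribosome cells was 4.12 for ribosome-rich Mki67-negative and 3.19 for Mki67-positive cells, so that Sox4 and Sox11 had their highest mean in different classes. For Sox4 the gap between the means of the 2 upper classes is smaller than the SD over cells in the ribosome-rich Mki67-negative class.

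Insm1 was found only in cells above the 3% limit. Its gene is on chromosome 2 (146221921 to 146225020, plus strand). It is listed at 0 in all 100 low-ribosome cells and in all 17 astrocytes. It was detected in 1 of 10 intermediate cells (17.4 TPM), in 2 of 12 ribosome-rich Mki67-negative cells (3.53 and 30.2 TPM) and in 6 of 11 Mki67-positive cells (54.5%, 23.4 to 83.3%), at 1.18, 5.76, 19.0, 29.8, 44.4 and 50.7 TPM. The Mki67-positive cells are therefore those in which it was found most often, but 5 of the 11 were under 1 TPM. The mean was 1.74 ± 5.50, 2.81 ± 8.67 and 13.7 ± 19.4 TPM in these 3 classes. No fold over low-ribosome cells is given, since all are at 0. Of the 9 cells with Insm1, 8 were of ogp and 1 of ogp2, while 9 of the 11 Mki67-positive cells were of ogp.

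Dlx1 and Dlx2 were detected together in the same 4 Mki67-positive cells. These genes lie beside each other on chromosome 2, Dlx1 at 71528113 to 71533981 on the plus strand and Dlx2 at 71543408 to 71546754 on the minus strand. Dlx1 overlaps the antisense gene Dlx1as, whose mean was 0.472 TPM in Mki67-positive cells, and without strand information their reads cannot be told apart. In cell ogp73 Dlx1 was at 201 TPM and Dlx2 at 325, in ogp74 at 94.2 and 97.2, in ogp80 at 69.1 and 39.4, and in ogp81 at 28.2 and 112.5. The other 7 Mki67-positive cells, all 12 ribosome-rich Mki67-negative cells and all 10 intermediate cells are listed at 0 for both. The shares were 4 of 11 (36.4%, 10.9 to 69.2%), and the means 35.7 ± 63.8 TPM for Dlx1 and 52.2 ± 99.7 TPM for Dlx2.

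The pair was also found in low-ribosome cells, but at 1 TPM or more not in the same one. The cell ogp83, with Dlx1 at 26.7 TPM, had Dlx2 at 0.56 TPM. With 3 and 5 positive cells of 100, a shared cell would be rare if the genes were spread independently. Dlx1 was in 3 of 100 low-ribosome cells, at 26.7, 137 and 141 TPM, and Dlx2 in 5 others, at 2.15, 45.2, 49.7, 55.5 and 125.5 TPM. The Dlx2 value of 45.2 TPM comes from ogp110, one of the 5 cells with a low deposited sum. Most of these values are within the range of the Mki67-positive cells, while the share of cells is lower. The means were 3.04 ± 19.6 and 2.79 ± 15.1 TPM, and the log2 ratio of Mki67-positive over low-ribosome cells was 3.18 for Dlx1 and 3.81 for Dlx2.

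These ratios rest on 4 cells of 1 name series that are also among those with the most genes detected, between 6885 and 7394. Within ogp2, where 2 Mki67-positive cells hold neither gene, the ratios were -2.62 for Dlx1 and -1.05 for Dlx2, against 4.82 and 3.48 within ogp. The window of 4500 to 6500 genes detected leaves out all 4 Mki67-positive cells with the pair, so it cannot compare the pair at like gene number. In that window each of the 2 genes was in 1 of 3 low-ribosome cells and in 0 of 4 Mki67-positive cells. The ratios there, which follow from the selection, were -5.54 and -5.42. The part of the number of genes detected in these ratios was not tested further. The last gene of this group, Dlx6os1, the long noncoding RNA of the Dlx5 and Dlx6 locus on chromosome 6 (6820189 to 6871592, minus strand), is listed at 0 in all 150 cells under both identifiers that carry its name. Dlx5 is also listed at 0 in all cells, and Dlx6 reached 1 TPM in 1 SVZ cell (1.37 TPM). No statement about expression of this locus is made from these zeros.

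**Figure D3:**
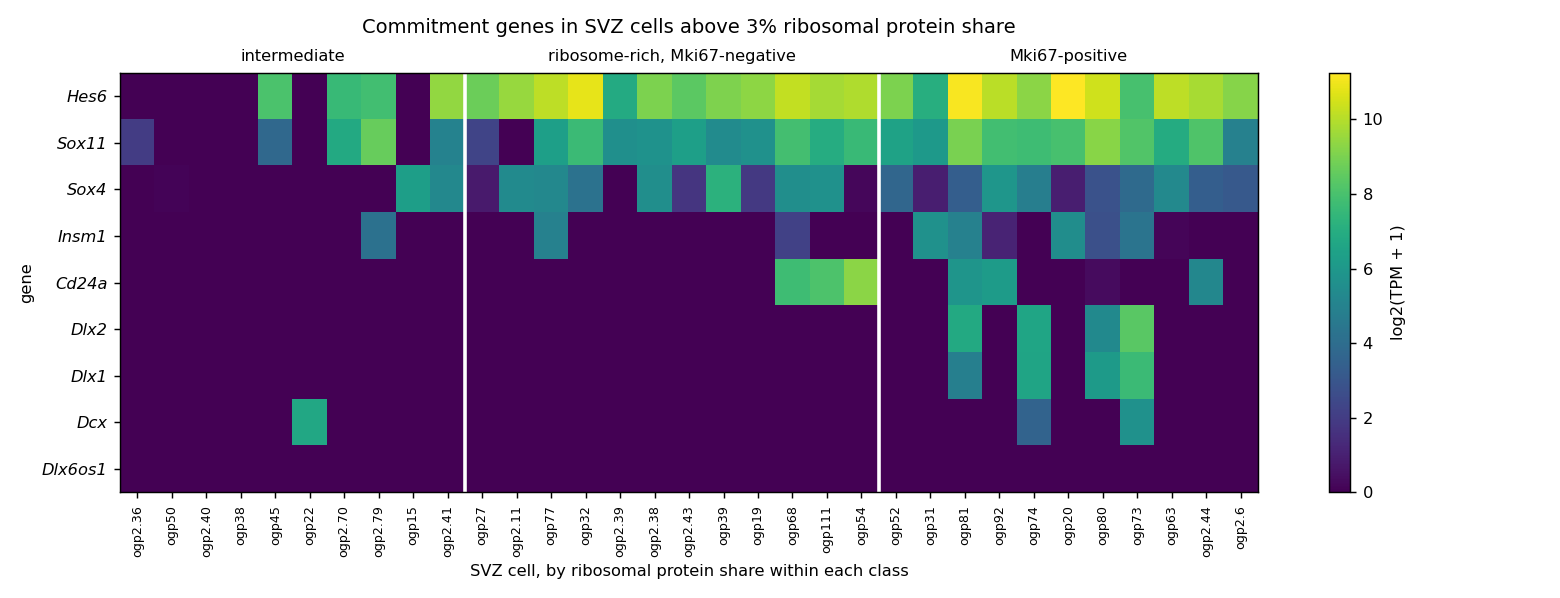
Level of the 9 genes as log2(TPM + 1) in each of the 33 SVZ cells above 3% ribosomal protein share, ordered by that share within the intermediate, the ribosome-rich Mki67-negative and the Mki67-positive class. Hes6 and Sox11 fill nearly all cells of the right-hand classes, and the Dlx1 and Dlx2 rows are filled in the same 4 cells.

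Cd24a was found in 6 SVZ cells, all ribosome-rich. Its gene is on chromosome 10 (43578284 to 43584265, plus strand). Among ribosome-rich Mki67-negative cells it was at 624 TPM in ogp54, 278 in ogp111 and 213 in ogp68 and listed at 0 in the other 9. The cell ogp111 is one of the 5 with a low deposited sum (309864 TPM). Among Mki67-positive cells it was at 71.6 TPM in ogp92, 57.6 in ogp81 and 36.3 in ogp2.44, at 0.270 in ogp80 and at 0 in the other 7. The highest value in low-ribosome cells was 0.320 TPM. The 3 Mki67-negative cells with Cd24a lie above the 3 Mki67-positive ones, and the log2 ratio of the class means, Mki67-positive over ribosome-rich Mki67-negative, was -2.55. Within ogp2 the ratio was 4.26, since no Mki67-negative cell there held the gene. It was 1.79 when cells with at least 3 of the 10 mitotic markers were taken as the cycling class, because ogp54 and ogp111 then change sides. The 3 Mki67-negative cells have the ribosomal protein shares of 14.6%, 13.6% and 11.99%, the highest of their class. Cd24a also marks ependymal cells, of whose 10 markers at most 1 was detected in any of these 6 cells, with a summed level of 0 to 90.9 TPM.

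Dcx, on the X chromosome (143855842 to 143933311, minus strand), was found in 3 SVZ cells. It was at 50.1 TPM in ogp73 and 10.96 TPM in ogp74, both Mki67-positive with Dlx1 and Dlx2, and at 107.1 TPM in the intermediate cell ogp22. In ogp22 no other commitment gene was detected, and 6 of the 10 oligodendrocyte lineage markers were, with a summed level of 7308 TPM, the highest of all SVZ cells. All low-ribosome cells were at or below 0.0500 TPM. The log2 ratio of 3.55 of intermediate over low-ribosome cells is therefore the value of ogp22 alone, and it was -0.000721 without that cell. The mean was 5.55 ± 15.1 TPM in Mki67-positive cells, under the 10 TPM at which ratios were counted.

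Counted over the set, 7 of the 9 genes were at least 4-fold higher in Mki67-positive than in low-ribosome cells. Of the 9358 genes with a mean of 10 TPM or more in either class, 13.8% were. None of the 9 was lower, but only Hes6 had 10 TPM in low-ribosome cells, so no other could be counted as lower. The others of the 7 passed that limit through the Mki67-positive mean alone. In the 2 further comparisons with low-ribosome cells, members other than Hes6 likewise passed it through the mean of the other class alone. Insm1 is among the 7 through its mean of 13.7 TPM against a class listed at 0. Ribosome-rich Mki67-negative cells gave 4 of 9 over low-ribosome cells (Cd24a, Sox4, Hes6 and Sox11), beside 9.39% of all genes. Intermediate cells gave 3 of 9 (Dcx, Sox11 and Sox4), beside 9.73%. Without the highest intermediate cell of each gene their ratios were -0.000721, 1.18 and 1.39, so that 0 of 9 were counted, beside 1.28% of all genes. Between Mki67-positive and ribosome-rich Mki67-negative cells, Dlx1 and Dlx2 were counted as higher, against a class listed at 0, beside 8.33% of all genes, and Cd24a as lower, beside 8.99%. Over the genes above 0 in both classes, median log2 ratios in these 4 comparisons were 3.81 (7 genes), 3.96 (4 genes), 2.74 (4 genes) and 0.40 (5 genes). Over all 9 genes the medians were 3.81, 1.93, 1.31 and 1.37. Dlx1 and Dlx2, with ratios of -2.01 and -1.92, are left out of the 3.96 and the 2.74. Over all genes with 10 TPM in either class, which is another limit, the medians were 0.12, 0.16, 0.22 and -0.02. At the limit of 10 TPM, 7, 4, 4 and 7 of the 9 genes could be counted in these comparisons, while the shares are of all genes that reach it. The low-ribosome cells serve in the first 3 comparisons, which are therefore not independent of each other. With the mean of log2(TPM + 1) over cells in place of the log2 of the mean, 6 of 9 genes passed in Mki67-positive over low-ribosome cells, but so did 43.6% of all genes, and 0 of 9 passed in intermediate cells. In ogp2 alone, with 2 Mki67-positive cells, 3 of 9 passed in Mki67-positive cells, beside 18.3% of all genes, and 1 of 9 in intermediate cells, beside 12.7%.

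The commitment genes differed in how many ribosome-rich cells held them. Of the 21 ribosome-rich cells, 21 held Hes6, 20 Sox11, 17 Sox4, 7 Insm1, 6 Cd24a, 4 each Dlx1 and Dlx2, and 2 Dcx. All 7 cells with Insm1, all 6 with Cd24a, all 4 with Dlx1 and Dlx2 and the 2 with Dcx also held Hes6 and Sox11. Sox4 was present in 6 of 7 Insm1 cells, 5 of 6 Cd24a cells, 4 of 4 Dlx cells and 2 of 2 Dcx cells. Insm1 was in 3 of the 4 Dlx cells, and the 2 Dcx cells held Dlx1 and Dlx2. Of the 2 Dcx cells, 1 held Insm1. Cd24a was in 1 of the 4 Dlx cells and 0 of the 2 Dcx cells, and 3 of the 6 Cd24a cells held Insm1. Cells that held every more frequent gene numbered 16 of 17 for Sox4, 6 of 7 for Insm1, 3 of 6 for Cd24a, 1 of 4 each for Dlx1 and Dlx2 and 0 of 2 for Dcx. Since Hes6 and Sox11 were in nearly every ribosome-rich cell, their presence beside the rarer genes adds little to those shares.

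**Figure D4:**
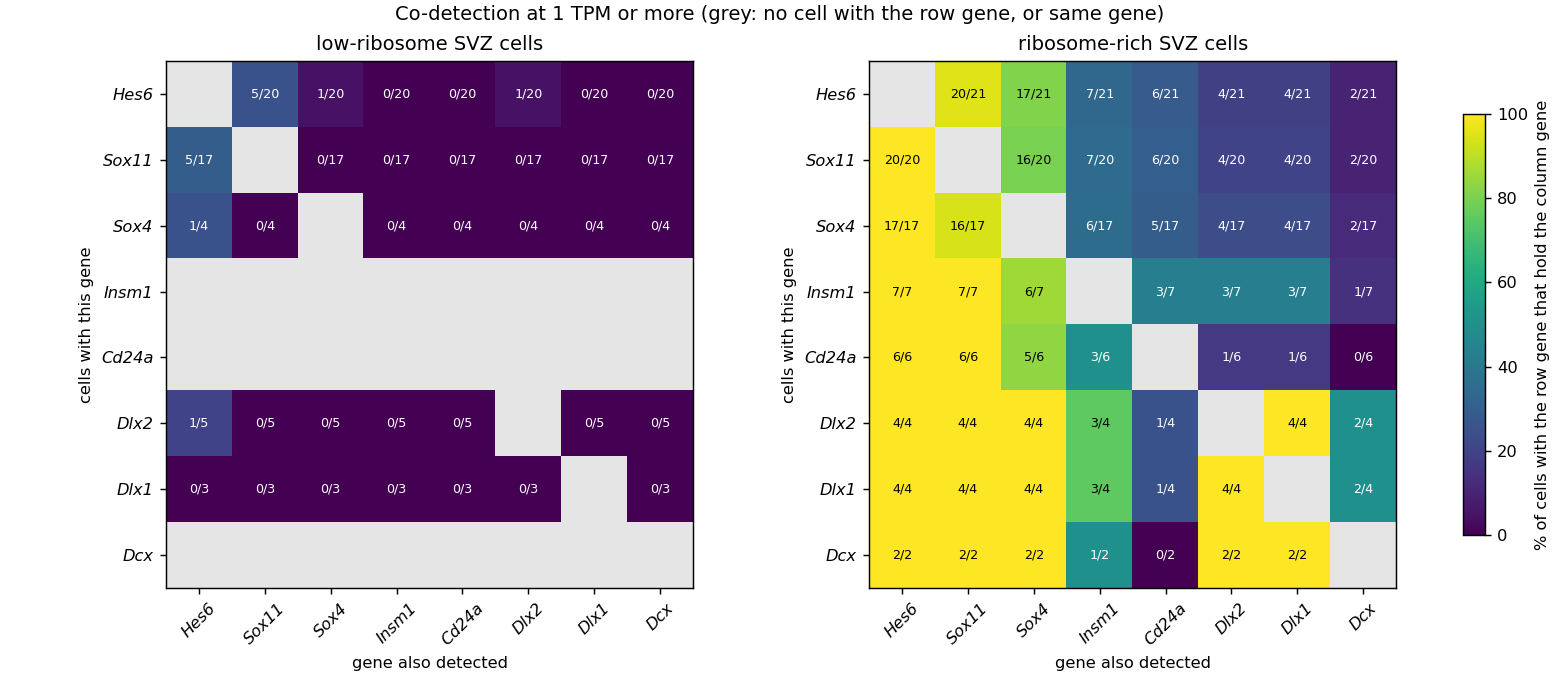
Share of cells with the row gene that also held the column gene, in percent, for 100 low-ribosome cells (left) and 21 ribosome-rich cells (right), with the cell numbers written in each field. On the right, all cells with Insm1, Cd24a, Dlx1, Dlx2 or Dcx also held Hes6 and Sox11, and the fields on the left are mostly at 0.

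Taking each pair of genes in each set of cells, the rarer gene was accompanied by the more frequent one in 140 of 157 cases in ribosome-rich cells (89.2%) and in 7 of 51 in low-ribosome cells (13.7%). The shares of cells with each gene, multiplied as if the genes were spread independently, would give 80.5% and 16.3%. Of the 17 low-ribosome cells with Sox11, 5 held Hes6, and of the 83 without it 15 did. None of the 3 low-ribosome cells with Dlx1 held any other of the 9 genes at 1 TPM or more, and 1 of the 5 with Dlx2 held Hes6. Over all SVZ cells, which pool the classes, the share was 65.2%, beside 26.2% from the genes' own shares of cells. In ogp these were 70.7% and 32.7%, and in ogp2 50.98% and 22.2%. The cells with the most genes of the set were ogp73 and ogp81 with 7 each and ogp74 and ogp80 with 6 each, followed by ogp68 and ogp92 with 5. Of these, ogp68 alone was Mki67-negative.

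The astrocytes give a reference for scattered detection. Dcx, Cd24a, Insm1 and Dlx6os1 are listed at 0 in all 17. In striatum, Hes6 was found in 2 of 13 cells (164 and 186 TPM), Sox11 in 3 (3.50, 9.51 and 36.4 TPM) and Dlx2 in 1 (1.28 TPM). In cortex, each of the 4 cells held a different gene, with Sox4 at 33.2 TPM, Sox11 at 72.9, Dlx1 at 105.6 and Hes6 at 307. Hes6 and Sox11 in these cells lie within the range of low-ribosome SVZ cells, in which 20 and 17 of 100 held them. Only Hes6 had a mean of 10 TPM in low-ribosome SVZ cells or striatum, so at most 1 of the 9 genes could be counted there. Its ratio was 0.99, and 0 genes were counted as higher, beside 13% of 8831 genes, or as lower, beside 4.52%. Dlx1, with a mean of 3.04 TPM against striatum cells all listed at 0, was under that limit. In the comparison with cortex 3 genes could be counted and 0 were higher, beside 34.6% of 8653 genes. Dlx1 was lower than in cortex by a log2 ratio of -2.76, beside 9.03% of genes, but this rests on 1 cortex cell and was 2.01 without it. Hes6, Sox11 and Sox4 had ratios to cortex of -0.49, -1.24 and -2.25, which were 5.79, 3.03 and 0.96 without the 1 cortex cell that held each gene. Low-ribosome cells and astrocytes were close in the number of genes detected, with medians of 3214.5, 3636 (striatum) and 3387.5 (cortex).

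Other genes of the same programme were taken from 4 lists of 65 genes ordered by role. Of these, 36 had a mean of 10 TPM or more in ribosome-rich or low-ribosome cells, 19 were at least 4-fold higher over all 21 ribosome-rich cells than in low-ribosome cells, 2 were at least 4-fold lower and 6 were at 0 in every SVZ and astrocyte cell. Of all genes tested in this comparison 11% were higher and 10.5% lower. Of the 9 commitment genes, 6 had a mean of 10 TPM or more in either class, and these 6 were higher. Apart from Hes6, they passed that limit through the ribosome-rich mean alone, so they could not have been counted as lower. Without the highest ribosome-rich cell of each gene, 15 of the listed genes and 4 of the 9 were counted, beside 8.22% of all genes. Within ogp2 these were 7 and 3, beside 14.2%.

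Of 15 ventral forebrain factors, 7 had 10 TPM and 3 were higher: Gsx1 (log2 ratio 3.71), which like Gsx2 (2.64) patterns the ventral forebrain, and Pbx3 (3.18), a homeobox cofactor. Pbx3 was in 1 of 12 ribosome-rich Mki67-negative and 1 of 11 Mki67-positive cells, and its ratio was 1.13 without the highest cell and -0.17 within ogp2. Etv1 had a ratio of 0.85. Gsx1 was in 5 of 11 and Gsx2 in 5 of 11 Mki67-positive cells, while Sp8, Sp9, Dlx5 and Isl1 are listed at 0.

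Of 13 Notch genes, 12 had 10 TPM and 6 were higher in ribosome-rich cells. The ligands Dll3 and Dll1 had log2 ratios of 5.97 and 5.39. Dll4, a further ligand, and Mfng, a glycosyltransferase that modifies Notch receptors, had means of 11.3 and 50.2 TPM and are listed at 0 in all low-ribosome cells. The ligand Jag1 and Rbpj were also higher, with ratios of 3.32 and 2.21. The Notch targets Hes1 and Hes5 had ratios of 0.03 and 0.10, and the targets Hey1 and Hey2 of -1.93 and -0.90. Notch1 and Notch2 had ratios of -0.49 and -0.68. Of 11 commitment cofactors, 7 had 10 TPM, with 3 higher and 1 lower. Rcor2, a corepressor, had a ratio of 3.56, Btg2, an antiproliferative gene of neurogenic divisions, of 3.24, and Fbxw7, a ubiquitin ligase subunit that limits Notch activity, of 2.27. Rnd2, a small GTPase of migrating neurons, had a ratio of -5.43, and was found in 25 of 100 low-ribosome cells and in no ribosome-rich cell.

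Of 26 genes of the neuroblast cytoskeleton, adhesion and migration, 10 had 10 TPM, with 7 higher and 1 lower. Tubb3, the neuronal beta tubulin, had a ratio of 5.97 and was in 2 of 12 ribosome-rich Mki67-negative and 6 of 11 Mki67-positive cells. It reached 1 TPM in no low-ribosome cell, but in 1 striatum and 1 cortex astrocyte, with group means of 22.1 and 50.9 TPM. Stmn1, which destabilises microtubules, had a ratio of 4.74, with means of 78.3 TPM in low-ribosome, 1063 in ribosome-rich Mki67-negative and 3498 in Mki67-positive cells. Dpysl3, a cytoskeletal protein of growing axons, had 4.35 and Nrep, a regenerating neuron protein, 4.23. Nrep was in 3 of 12 ribosome-rich Mki67-negative and 2 of 11 Mki67-positive cells. Ncam1, the adhesion molecule whose polysialylated form marks neuroblasts, was the lower one, at 306 TPM in low-ribosome and 49.8 in ribosome-rich cells. Tubb2b and Dclk1 were lower by less than 4-fold, with ratios of -0.93 and -1.24.

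**Figure D5:**
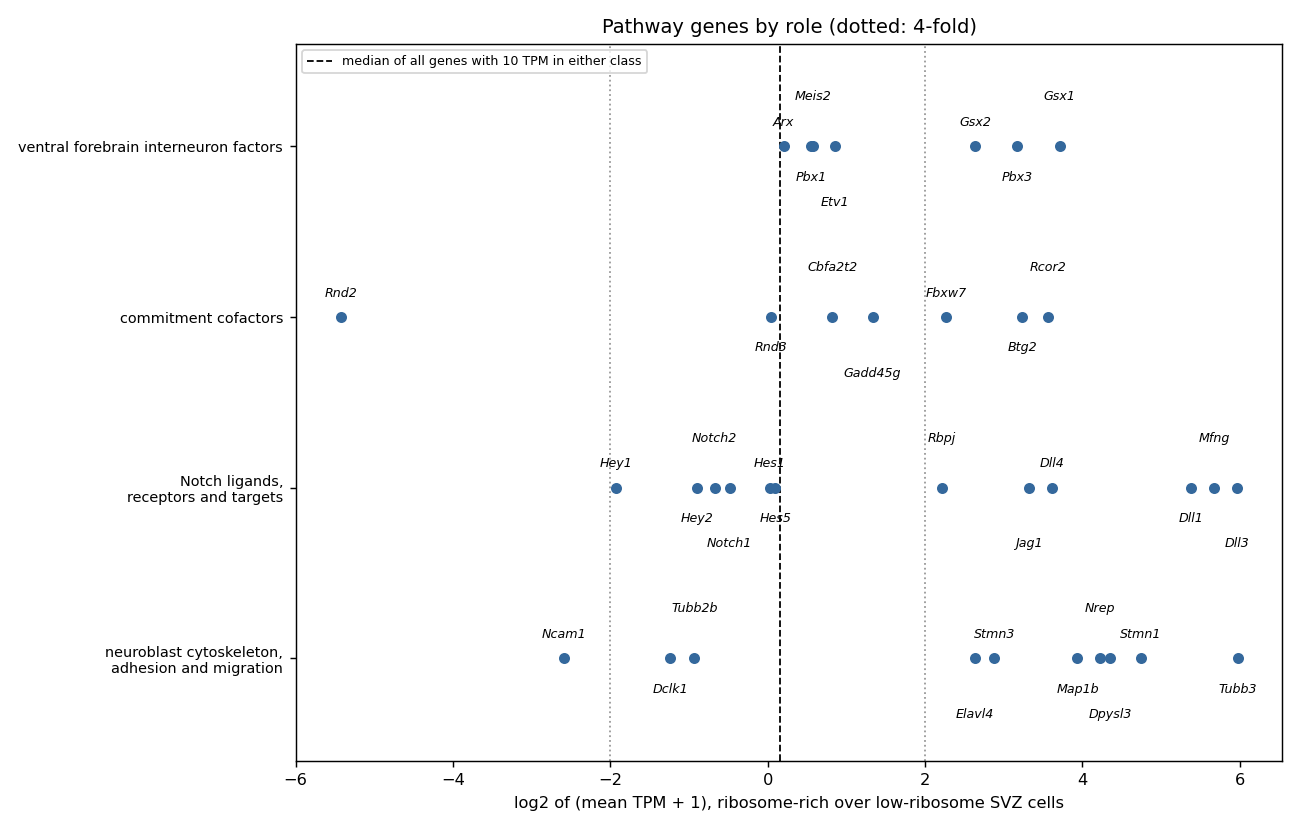
Log2 of (mean TPM + 1) in 21 ribosome-rich over 100 low-ribosome SVZ cells for the 36 listed genes with 10 TPM or more in either class, by role. The dashed line is the median of all genes tested and the dotted lines mark 4-fold. Dll3, Mfng and Tubb3 lie farthest to the right and Rnd2 farthest to the left.

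The genes most like each member were ranked by Pearson r of log2(TPM + 1) over all SVZ cells, among 7637 genes detected in at least 10 of them with a mean of 10 TPM or more, leaving out predicted genes and pseudogenes. The closest to Hes6 were Marcksl1 (0.69), Nptx2 (0.64) and Mycn (0.64), to Sox11 Cdk6 (0.70), Ier2 (0.70) and Mycn (0.70), and to Sox4 Nptx2 (0.62), Ier2 (0.62) and Mbd3 (0.62). Marcksl1 was in 45 cells with a mean of 619 TPM in ribosome-rich and 25.2 in low-ribosome cells. Those closest to Insm1 were Bcat1 (0.63), Plk1 (0.63) and Nek2 (0.62), of which Plk1 and Nek2 are kinases of mitosis. In ogp2, where 1 cell held Insm1, the r was 0.64 for Bcat1, -0.02 for Plk1 and -0.03 for Nek2. Closest to Dlx1 were Pmf1 (0.49), Gmnn (0.49) and Tacc3 (0.48), to Dlx2 Nusap1 (0.52), Cenpa (0.49) and Neil1 (0.48), to Cd24a Cdk6 (0.57), Trim59 (0.55) and Dnph1 (0.53), and to Dcx Asns (0.51), Pafah1b3 (0.43) and Thap4 (0.43). In ogp2 the r with Dlx2 was -0.02 for Nusap1, -0.04 for Cenpa and -0.03 for Neil1. Within the set, Hes6 and Sox11 had an r of 0.63, Dlx1 and Dlx2 of 0.54, and Hes6 and Sox4 of 0.54. These cells share pooled mice and the difference in the number of genes detected, and for Dlx1, Dlx2, Insm1, Cd24a and Dcx, found in 3 to 9 cells, the values rest on few points.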

How the data were processed

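Expression in 150 single cells was read from tables that the authors deposited as TPM, as seen from their range and column sums. Per the submitters' processing notes, the tools were STAR 2.4.0g1 and RSEM 1.2.18 and the genome build was mm10, and the gene annotation is not given in the sources used here. Each cell was rescaled to 1000000 TPM. Of 43309 identifiers, 42425 matched a symbol in a table of gene names, and of identifiers that share a symbol the one with the largest mean was used (42405 symbols). A gene list on transcription factors is not reported here, and the 18 population libraries were not analysed here. Ribosomal protein share was summed over 91 genes. A gene counts as detected at 1 TPM, and ratios are log2 of mean TPM + 1, which understates changes of low genes. A gene is counted at 4-fold or more with a mean of at least 10 TPM in either group. Pandas 2.3.3, numpy 2.4.6 and scipy 1.17.1 were used. The ratio calculation was checked on shuffled values of the SVZ cells, with known folds planted in abundant, widely detected genes. This check does not cover genes found in few cells, the split into classes or the co-detection.

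All 9 members are named, and of each pathway list up to 4 genes with the largest ratio, of each member the 3 most alike genes. Levels of other listed genes, among them Notch targets and Ncam1, were added after their values were seen. Members and lists were chosen with earlier results of these data known. The comparison of Mki67-positive with ribosome-rich Mki67-negative cells the window of 4500 to 6500 genes and the counts without the highest cell were added after values were seen. Alternatives covered scaling, pseudocount, detection limit, class limits, name series, low-sum cells and single cells left out.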

Additional observations from a re-analysis of the deposited data

Results flagged for a closer look

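In the 4 cortex astrocytes, 4 of the 9 genes were high in a single cell that stood far from the other 3. These were Hes6 at 307.47 TPM, Dlx1 at 105.62 TPM, Sox11 at 72.92 TPM and Sox4 at 33.16 TPM, with the other cells of the group at 0 for that gene. Each value was in a different cell, so every cortex cell held 1 of the 9 genes. Such a gap is common for a gene found in 1 of 4 cells, and chance alone gives some such values when several genes are examined. The cells are not replicates of a condition.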

How the results depend on the processing

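Each value was recomputed under other scalings, pseudocounts, detection limits, class limits and cell selections, and 2051 values of single genes stayed within 1 SD over cells, within the interval of a share or within 1.5-fold of a ratio, 270 moved further, and 16 ratios that were at least 4-fold changed sign. Of all 987 recomputed ratios, 23 changed sign, the other 7 being smaller than 4-fold. For mean levels 616 values stayed and 5 moved, but the SD over cells was often larger than the mean, so this limit is wide. Dlx6os1, at 0 in every cell, could not move. Of the summary values 313 stayed and 53 moved. Within ogp the median number of commitment genes in low-ribosome cells was 1, and the log2 ratio of Sox11 in intermediate over low-ribosome cells was -1.49. Within ogp2, 1 cell held 4 or more of the genes, against 9 in all, and the rarer gene was accompanied by the more frequent in 50.98% of cases over all cells and 94.4% in ribosome-rich ones. There 3 genes were at least 4-fold higher in Mki67-positive over low-ribosome cells (beside 18.3% of all genes), 1 in intermediate over low-ribosome (12.7%), 1 in Mki67-positive over ribosome-rich Mki67-negative (beside 21.3% of all genes) and 3 in ribosome-rich over low-ribosome cells (14.2%), where 7 pathway genes were counted and Pbx3 had a ratio of -0.17. The ratios of Dlx1 and Dlx2 were -2.62 and -1.05 in ogp2, for Mki67-positive and for all ribosome-rich over low-ribosome cells, and that of Cd24a, Mki67-positive over ribosome-rich Mki67-negative, was 4.26.

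With cells of 4500 to 6500 genes detected, a selection chosen after seeing the data, the low-ribosome median was 1, 3 cells held 4 or more of the genes, and the shares of accompanied cases were 71.8% and 97.6%. Dlx1 and Dlx2 had ratios of -5.54 and -5.42 for Mki67-positive and for ribosome-rich over low-ribosome cells. All ribosome-rich cells with these 2 genes have more than 6500 genes detected, so both ratios follow from the selection. Members counted as higher were 4 for Mki67-positive over low-ribosome and 0 over ribosome-rich Mki67-negative cells, and 34.9% (Mki67-positive), 32.7% (ribosome-rich Mki67-negative), 30.9% (intermediate) and 32.6% (all ribosome-rich) of all genes were higher than in the 3 low-ribosome cells left.

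A pseudocount of 10 TPM left 3 members higher in Mki67-positive, 0 in intermediate and 3 in ribosome-rich over low-ribosome cells, with 10 pathway genes in the last. The share of all genes was then 7.19%, 3.21% (ribosome-rich Mki67-negative), 1.77% and 4.67% over low-ribosome cells, 2.67% for Mki67-positive over ribosome-rich Mki67-negative cells, and 1.86% and 11.1% for low-ribosome cells over striatum and cortex. With the mean of log2(TPM + 1) the same shares were 43.6%, 25.3% and 32.8% (Mki67-positive, ribosome-rich Mki67-negative and all ribosome-rich), 16.5%, 1.21% and 5.59%, with 0 members higher in intermediate cells. Without a filter on low values they were 8.42%, 6.18%, 6.07% (intermediate) and 6.89%, and 1 member was higher in low-ribosome cells than in striatum.

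With detection above 0 the low-ribosome median was 1, and with detection at 10 TPM 80.5% of cases in ribosome-rich cells were accompanied. Class limits of 2.5% and 5% gave 0 members higher in intermediate cells. Limits of 4% and 8% gave an intermediate median of 2.5 and a Dcx ratio of -1.01. At limits of 3% and 6%, without the highest cell of each gene, the Dcx ratio was -0.000721. The counts under that setting were added after seeing the data, with 0 members higher in intermediate cells (1.28% of all genes), and with 4.81% of all genes for ribosome-rich Mki67-negative over low-ribosome and 5.10% for Mki67-positive over ribosome-rich Mki67-negative cells. Requiring 3 of 10 mitotic markers gave Cd24a 1.79 and 13.1% of all genes for cycling over other ribosome-rich cells. With 1 of the cortex cells left out at a time, 0 to 1 members were higher in low-ribosome cells than in cortex, and the ratio ran from -2.63 to 0.96 for Sox4, from -3.16 to 2.01 for Dlx1, from -1.64 to 3.03 for Sox11 and from -0.90 to 5.79 for Hes6, the upper ends being without the cell that held the gene. Beyond the cells each selection removes, the cause of these shifts was not tested. No paired analysis was possible because the results come from no test and the replicate numbers only follow accession order. Depth is unknown, so a gene listed at 0 may have been missed.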
